A study of Gallus gallus with 8 samples.

Results

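Cadherins and protocadherins are calcium-dependent adhesion proteins of the cell surface. They were taken from the deposited count table by symbol, as every gene named CDH followed by digits alone or beginning with PCDH, whatever its level. This gave 32 of 17329 genes, 17 cadherins and 15 protocadherins. CDH1-A falls outside the rule, and the reference table lists that name under FZR1, a cell cycle regulator. CAD19, which that table gives as a synonym of CDH19, falls outside it as well and had 1 count in each of 2 libraries and none in the others.

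Messenger RNA of chick embryo ectoderm (Gallus gallus) was sequenced in 8 libraries, 1 per tissue. The anterior and the central epiblast came from embryos before the primitive streak (stage EGKXII/XIII). Embryos at HH4 were given a graft of Hensen's node, the organiser, in the area opaca, and 5 hours later the epiblast that touched the graft was collected, as was area opaca from the contralateral side. From HH6/7 embryos came neural plate, preplacodal ectoderm in an anterior and a posterior piece, and anterior head ectoderm outside both the neural and the placodal territory. Placodes form cranial sense organs and ganglia. No strain, genotype or number of pooled embryos is stated, and the ungrafted tissue belongs to embryos that carried a graft elsewhere.

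Classical cadherins join like cells through their outer domains and hold the actin skeleton through catenins. Type I members such as CDH1 (E-cadherin, the L-CAM of the chick) and CDH2 (N-cadherin) carry strong epithelial adhesion, and in vertebrate embryos the forming neural plate is known to exchange E-cadherin for N-cadherin, a step called cadherin switching. Type II members mark subsets of neural and mesenchymal cells. Protocadherins adhere more weakly and act in cell sorting and signalling, and clustered protocadherins are made from shared constant exons.

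Total counts ran from 13053810 with and 14573663 without the graft to 138666339 in posterior preplacodal tissue. Levels are CPM, the count scaled to the library total. A floor of 3 counts stands in for a 0 and corresponds to 0.0216 to 0.230 CPM. With 1 library per tissue there is no spread between replicates and no test, and any difference may lie between the pieces of tissue dissected as well as between tissues. Intervals in brackets are exact 95% intervals that cover counting error only, and PCR copies are not independent molecules. The labels assign 5 libraries (epiblast, area opaca, neural plate) to a first laboratory and 3 (preplacodal, non-neural) to a second. Wherever neural plate, epiblast or area opaca is set against one of these 3, tissue and laboratory cannot be told apart. In such bulk samples fewer expressing cells and less RNA per cell cannot be told apart either. Of the tissue markers, SOX2 was highest in neural plate (60.0 CPM) and GRHL3 in non-neural ectoderm (318 CPM). EYA2 was highest in preplacodal tissue (78.4 CPM in both pieces). Other markers peaked elsewhere. The neural SOX3 (222 CPM) and the preplacodal HOMER2 (85.3 CPM) were highest in anterior epiblast. LHX5 and OTX2 were about as high in anterior preplacodal tissue as in neural plate. Of the surface markers, TFAP2A was highest in posterior (323 CPM) and GATA3 in anterior preplacodal tissue (104 CPM), and KRT18 and KRT19 in ungrafted area opaca. SIX3, a further neural marker, had no count in any library.

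Of the 32 genes, 22 reached 5 CPM in at least 1 library, 5 peaked between 1 and 5 CPM, and 5 stayed under 1 CPM. By library, the share of members at 5 CPM ran from 25% in central epiblast to 59.4% in posterior preplacodal tissue. For all genes it was 51.2% and 55.8% in these libraries. Just outside the limit of 5 CPM lay PCDH10 (4.55 CPM at its highest), and just inside it CDH12 (7.62 CPM). All 4 type I cadherins and 8 of 10 type II cadherins were among the 22. The levels of 15 of the 22 differed at least 10-fold between their highest and lowest libraries (for CDH5, without a count in 2 libraries, at least 36.2-fold against the larger floor of these libraries), and those of 4 (CDH1, CDH3, PCDH1 and PCDH19) by less than 4-fold. Among the HH6/7 tissues, 8 of the 22 were highest in neural plate, 6 in posterior and 3 in anterior preplacodal tissue, and 5 in non-neural ectoderm. Ranges and highest tissues were not counted over all genes, so these numbers cannot be read as particular to the family.

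**Figure D1:**
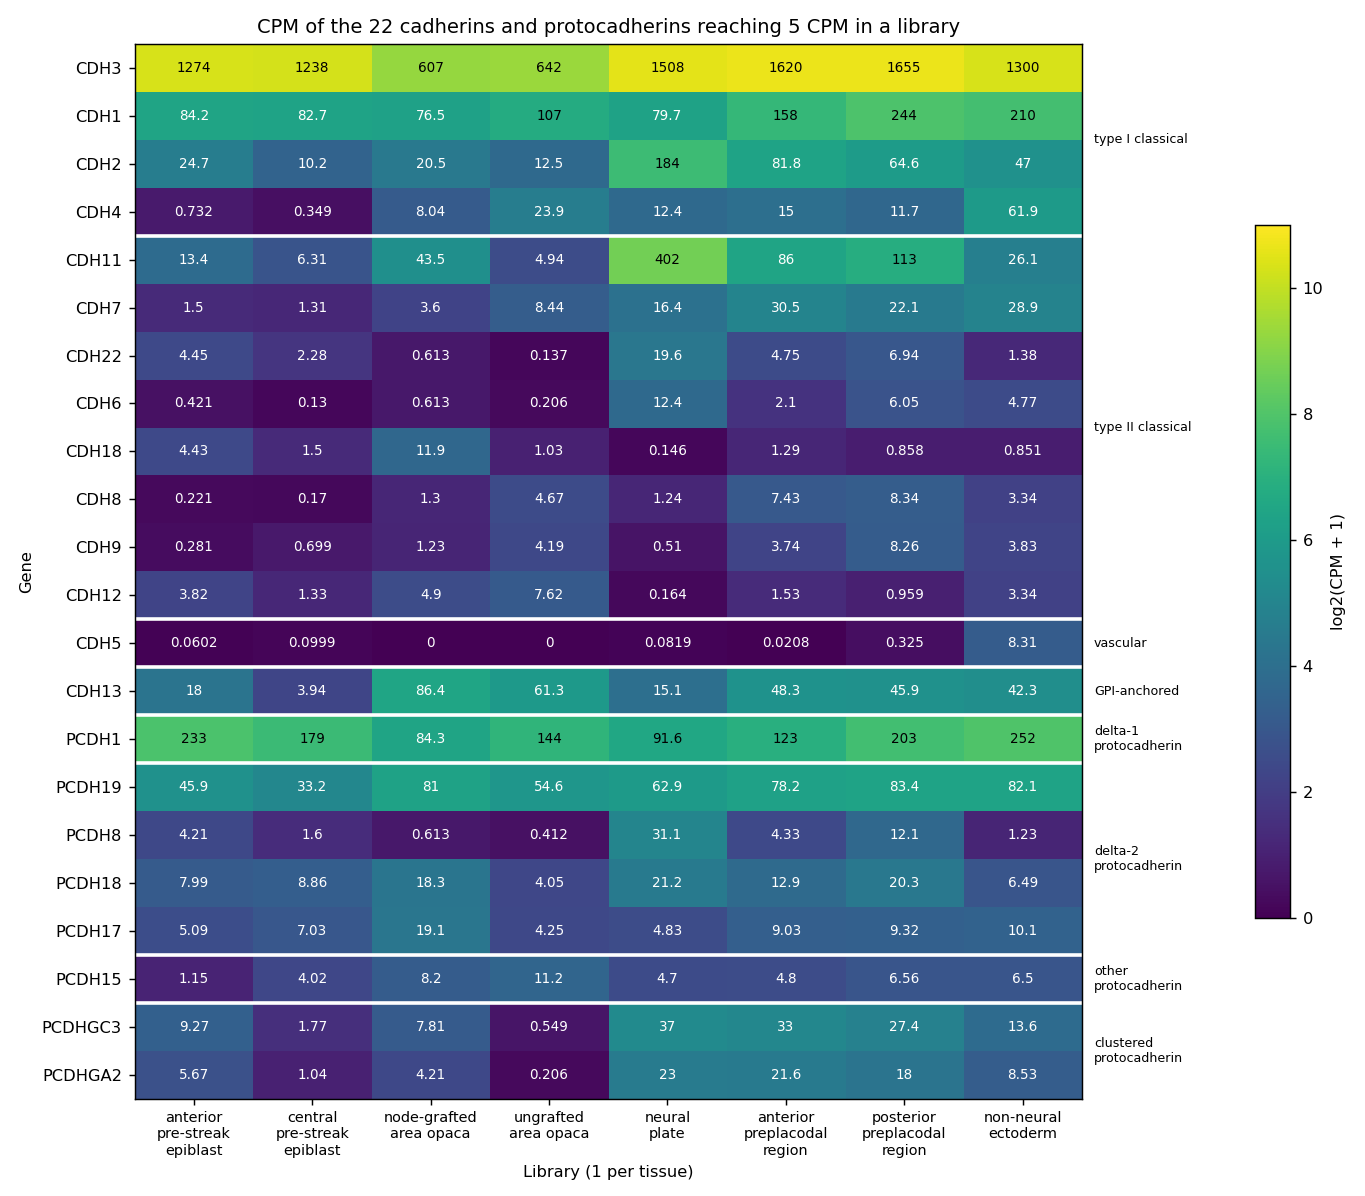
CPM (numbers in the cells; colour is log2(CPM + 1)) of the 22 genes at 5 CPM or more in a library, in rows by class, for the 8 libraries in columns. CDH3 is bright in all libraries, CDH11 peaks in neural plate at 402 CPM, and CDH5 reaches 5 CPM in non-neural ectoderm alone (8.31 CPM).

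CDH3, the P-cadherin of epithelia that the reference table also names K-CAM, was abundant throughout. It stood at 1274 CPM in anterior and 1238 CPM in central epiblast, and at 607 CPM in grafted and 642 CPM in ungrafted area opaca. At HH6/7 it stood at 1508 CPM in neural plate, 1619.5 CPM in anterior and 1655 CPM in posterior preplacodal tissue, and 1300.4 CPM in non-neural ectoderm. The area opaca libraries were the lowest, and the HH6/7 tissues lay within 1.27-fold of each other. In deposited FPKM CDH3 was highest in anterior epiblast (708 FPKM), so the order of the epiblast and HH6/7 libraries depends on the unit. Between 55.4% and 77.6% of the reads counted for all members fell on CDH3. Per length, in deposited FPKM (fragments scaled to gene length and library size), CDH3 lay above CDH1 by 8.29-fold in the ungrafted area opaca, the lowest of the 8 libraries, and by 32.3-fold in neural plate, the highest. CDH3 and CDH1 are next to each other among protein-coding genes of the reference table, and how the authors divided reads between them is not known here.

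CDH1, the epithelial E-cadherin, varied little over epiblast and area opaca and differed by region at HH6/7. It stood at 84.2 CPM in anterior and 82.7 CPM in central epiblast, and at 76.5 CPM in grafted and 107 CPM in ungrafted area opaca. HH6/7 levels were 79.7 CPM in neural plate, 158 CPM in anterior and 244 CPM in posterior preplacodal tissue, and 209.6 CPM in non-neural ectoderm. In CPM neural plate lay near the epiblast level (ratio to anterior epiblast 0.947 [0.919, 0.976]), and the other HH6/7 tissues lay above it. CDH1 in neural plate was 2.63-fold [2.56, 2.70] lower than in non-neural ectoderm, 3.05-fold [2.98, 3.13] lower than in posterior and 1.98-fold [1.93, 2.03] lower than in anterior preplacodal tissue. Non-neural ectoderm was 2.49-fold [2.42, 2.56] above anterior epiblast. In deposited FPKM non-neural ectoderm (66.6 FPKM) stood above posterior preplacodal tissue (48.1 FPKM), the reverse of their order in CPM, while neural plate stayed lowest. Neural plate had 20.6 FPKM, below anterior (27.6 FPKM) and central epiblast (27.7 FPKM), so its nearness to the epiblast depends on the unit.

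CDH2, the N-cadherin of neural tissue, had another order. It stood at 24.7 CPM in anterior and 10.2 CPM in central epiblast, and at 20.5 CPM in grafted and 12.5 CPM in ungrafted area opaca. Among the HH6/7 tissues it stood at 184 CPM in neural plate, 81.8 CPM in anterior and 64.6 CPM in posterior preplacodal tissue, and 47.0 CPM in non-neural ectoderm. Every HH6/7 tissue lay above every epiblast and area opaca library, with neural plate on top and preplacodal tissue between it and non-neural ectoderm. CDH2 in neural plate was 7.46-fold [7.15, 7.78] above anterior epiblast and 3.92-fold [3.76, 4.08] above non-neural ectoderm. Anterior epiblast was 2.41-fold [2.24, 2.60] above central epiblast. On the grafted side CDH2 was 1.64-fold [1.36, 1.996] higher than on the ungrafted side, short of 2-fold.

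**Figure D2:**
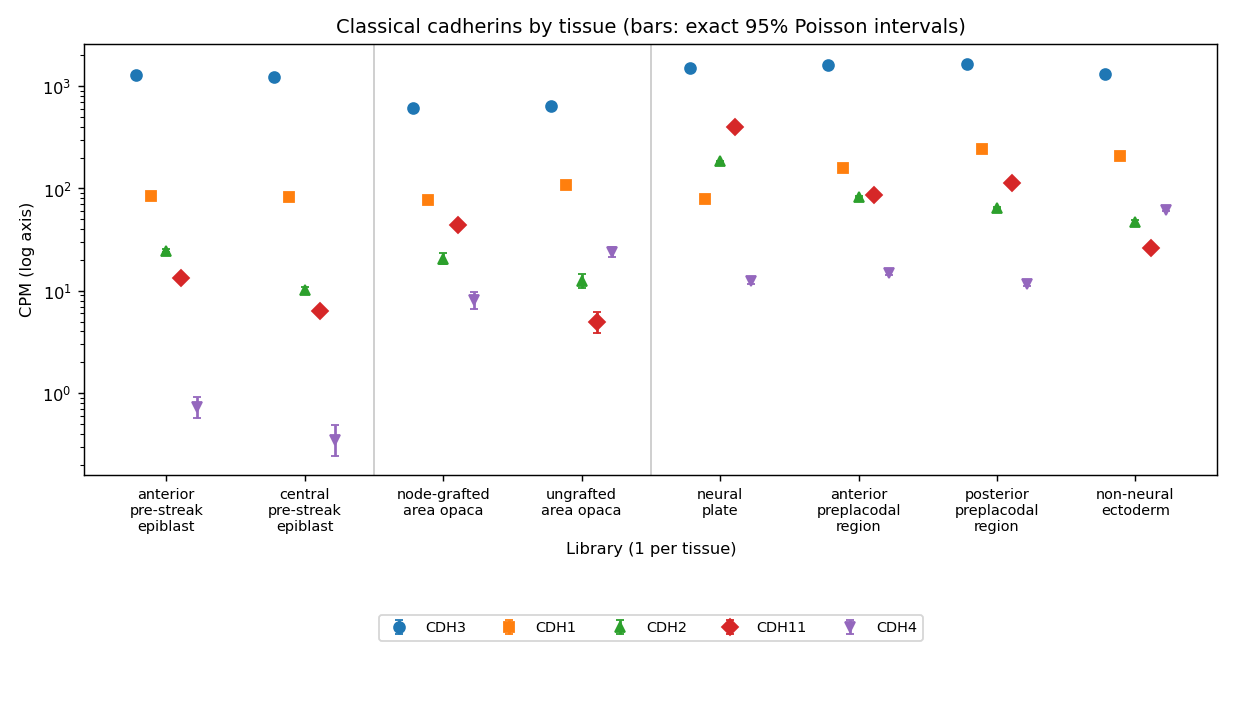
CPM on a log axis of CDH3, CDH1, CDH2, CDH11 and CDH4 in the 8 libraries, with exact 95% Poisson intervals as bars. CDH2 and CDH11 are highest in neural plate (184 and 402 CPM), where CDH1 is at 79.7 CPM, and CDH4 is highest in non-neural ectoderm (61.9 CPM).

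The balance of CDH2 to CDH1 within a library does not depend on library size. As a log2 ratio of counts, with gene length not removed, it was -1.77 [-1.84, -1.71] in anterior and -3.01 [-3.11, -2.92] in central epiblast, and -1.90 [-2.10, -1.70] in grafted and -3.11 [-3.33, -2.88] in ungrafted area opaca. At HH6/7 it was 1.21 [1.17, 1.24] in neural plate, -0.95 [-0.99, -0.91] in anterior and -1.91 [-1.95, -1.88] in posterior preplacodal tissue, and -2.16 [-2.22, -2.10] in non-neural ectoderm. Neural plate was the library with more CDH2 than CDH1 reads, and this also held per length, at 58.6 FPKM of CDH2 and 20.6 FPKM of CDH1. In non-neural ectoderm these were 14.6 and 66.6 FPKM, and in anterior epiblast 8.94 and 27.6 FPKM. CDH3 lay above both CDH2 and CDH1 in neural plate, at 665 FPKM, which was 11.3-fold the level of CDH2.

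Set against each other, the balance was 10.3-fold [9.81, 10.8] further towards CDH2 in neural plate than in non-neural ectoderm, and 7.88-fold [7.48, 8.30] further than in anterior epiblast. In CPM, CDH1 differed little between neural plate and epiblast, whereas against non-neural ectoderm neural plate had both a higher CDH2 and a lower CDH1. In deposited FPKM, CDH1 in neural plate (20.6 FPKM) was also below anterior (27.6 FPKM) and central epiblast (27.7 FPKM). The grafted area opaca was 2.31-fold [1.87, 2.85] further towards CDH2 than the ungrafted one, and anterior epiblast 2.37-fold [2.19, 2.56] further than central epiblast. Anterior preplacodal tissue lay 2.31-fold [2.20, 2.43] further towards CDH2 than non-neural ectoderm, and posterior preplacodal tissue 1.18-fold [1.13, 1.24]. Taken from deposited FPKM, the last of these was 1.94-fold, so its size depends on the unit.

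**Figure D3:**
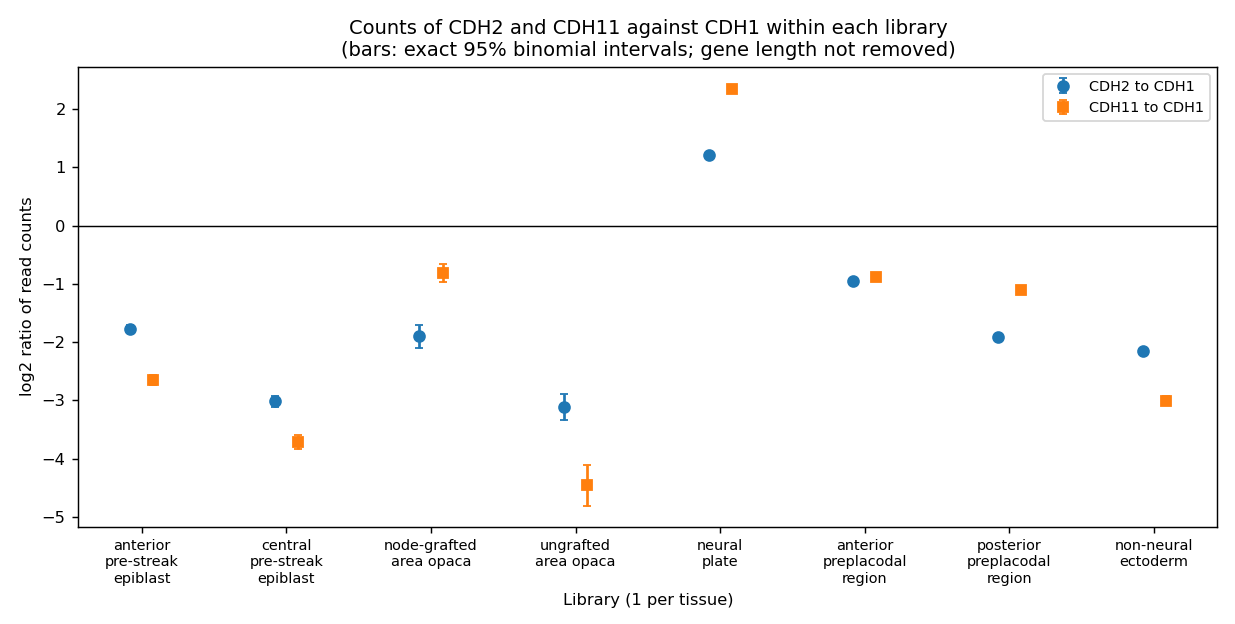
Log2 ratio of the read counts of CDH2 (circles) and CDH11 (squares) to those of CDH1 within each of the 8 libraries, with exact 95% binomial intervals as bars. Of the 8 libraries only neural plate lies above 0 for both pairs (1.21 and 2.34), and the grafted area opaca (-1.90 and -0.81) lies above the ungrafted one (-3.11 and -4.44).

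CDH4, the R-cadherin first described in retina, was nearly absent from the epiblast and highest in non-neural ectoderm. It stood at 0.732 CPM in anterior and 0.349 CPM in central epiblast, and at 8.04 CPM in grafted and 23.9 CPM in ungrafted area opaca. The HH6/7 tissues had 12.4 CPM in neural plate, 14.99 CPM in anterior and 11.7 CPM in posterior preplacodal tissue, and 61.9 CPM in non-neural ectoderm. CDH4 was 4.99-fold [4.68, 5.31] lower in neural plate, 4.13-fold [3.89, 4.39] lower in anterior and 5.31-fold [5.00, 5.63] lower in posterior preplacodal tissue than in non-neural ectoderm. It was 2.98-fold [2.39, 3.74] lower on the grafted than on the ungrafted side. Neural plate and posterior preplacodal tissue did not differ beyond counting error (ratio 1.06 [0.989, 1.14]).

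CDH11 (OB-cadherin, known from mesenchyme and bone) was the most abundant type II cadherin in neural plate by CPM and had a wide range. It stood at 13.4 CPM in anterior and 6.31 CPM in central epiblast, and at 43.5 CPM in grafted and 4.94 CPM in ungrafted area opaca. In HH6/7 tissue it stood at 402 CPM in neural plate, 86.0 CPM in anterior and 113 CPM in posterior preplacodal tissue, and 26.1 CPM in non-neural ectoderm. The grafted area opaca exceeded both epiblast libraries and non-neural ectoderm, and was 8.81-fold [6.88, 11.4] above the ungrafted side. Neural plate was 15.4-fold [14.7, 16.2] above non-neural ectoderm, 4.68-fold [4.57, 4.79] above anterior and 3.56-fold [3.49, 3.62] above posterior preplacodal tissue, and 30.1-fold [28.5, 31.8] above anterior epiblast. Preplacodal tissue, from the same laboratory as non-neural ectoderm, exceeded it by 3.29-fold [3.12, 3.48] anteriorly and 4.33-fold [4.11, 4.57] posteriorly. Markers of mesoderm, which expresses CDH11 in other embryos, summed over 6 genes to 215 CPM in the grafted and 37.5 CPM in the ungrafted area opaca. Of these EOMES had 202 CPM with and 29.8 CPM without the graft, TBX6 11.9 CPM with the graft and no count without it, and HAND1 0.996 CPM with and 7.75 CPM without it, while MESP2 and TCF15 had no count on either side. The sum was 12.8 CPM in neural plate and 86.0 CPM in non-neural ectoderm, where HAND1 alone had 80.8 CPM (0.191 CPM in neural plate). EOMES went the other way, at 9.27 CPM in neural plate and 2.45 CPM in non-neural ectoderm, and so did MEOX1, MESP2 and TCF15, all under 2 CPM in both. In anterior and central epiblast EOMES had 146 and 202 CPM and TBX6 174 and 59.2 CPM, with CDH11 at 13.4 and 6.31 CPM. The part of mesoderm in the CDH11 differences was not tested.

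CDH6, in the chick known as cadherin-6B of the dorsal neural tube and premigratory neural crest, was highest in neural plate. Its HH6/7 levels were 12.4 CPM in neural plate, 2.10 CPM in anterior and 6.05 CPM in posterior preplacodal tissue, and 4.77 CPM in non-neural ectoderm. In the 4 epiblast and area opaca libraries it stayed between 0.130 and 0.613 CPM. Neural plate was 2.59-fold [2.28, 2.96] above non-neural ectoderm and 29.3-fold [21.6, 40.9] above anterior epiblast.

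CDH22, a type II cadherin of the brain, stood at 19.6 CPM in neural plate, 4.75 CPM in anterior and 6.94 CPM in posterior preplacodal tissue, and 1.38 CPM in non-neural ectoderm. It stood at 4.45 CPM in anterior and 2.28 CPM in central epiblast, and at 0.613 CPM in grafted and 0.137 CPM in ungrafted area opaca, with 8 counts in the grafted and 2 in the ungrafted library. Neural plate exceeded non-neural ectoderm by 14.2-fold [11.4, 18.0] and anterior epiblast by 4.40-fold [3.97, 4.89]. In neural plate CDH22 and CDH11 were both high, while on the grafted side CDH22 was near the floor.

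CDH7, in the chick known from migrating neural crest, was shared by all HH6/7 tissues. It stood at 1.504 CPM in anterior and 1.31 CPM in central epiblast. It had 3.60 CPM in grafted and 8.44 CPM in ungrafted area opaca, a 2.34-fold [1.66, 3.35] lower level on the grafted side. At HH6/7 it had 16.4 CPM in neural plate, 30.5 CPM in anterior and 22.1 CPM in posterior preplacodal tissue, and 28.9 CPM in non-neural ectoderm. Anterior preplacodal tissue and non-neural ectoderm did not differ beyond counting error (ratio 1.05 [0.993, 1.12]). Over anterior epiblast, neural plate was 10.9-fold [9.21, 12.9], anterior preplacodal tissue 20.3-fold [17.2, 24.1] and non-neural ectoderm 19.2-fold [16.3, 22.9] higher.

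CDH8 and CDH9, type II cadherins of neurons, were highest in preplacodal tissue. CDH8 stood at 1.24 CPM in neural plate, 7.43 CPM in anterior and 8.34 CPM in posterior preplacodal tissue, and 3.34 CPM in non-neural ectoderm. CDH9 stood at 0.510 CPM in neural plate, 3.74 CPM in anterior and 8.26 CPM in posterior preplacodal tissue, and 3.83 CPM in non-neural ectoderm. Among these 4 tissues neural plate was lowest for both. Against posterior preplacodal tissue it was 6.73-fold [5.63, 8.10] lower for CDH8 and 16.2-fold [12.4, 21.6] lower for CDH9. Within the second laboratory posterior preplacodal tissue exceeded non-neural ectoderm by 2.50-fold [2.15, 2.92] for CDH8 and 2.16-fold [1.87, 2.50] for CDH9. CDH8 had 0.221 CPM in anterior and 0.170 CPM in central epiblast, and 1.30 CPM in grafted and 4.67 CPM in ungrafted area opaca. CDH9 had 0.281 CPM in anterior and 0.699 CPM in central epiblast, and 1.23 CPM in grafted and 4.19 CPM in ungrafted area opaca. Both were thus low in the epiblast and, in area opaca, higher without the graft, at levels under 5 CPM.

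CDH18 and CDH12, a further pair of neuronal type II cadherins, were highest in area opaca. CDH18 stood at 4.43 CPM in anterior and 1.498 CPM in central epiblast. CDH18 had 11.9 CPM in grafted and 1.03 CPM in ungrafted area opaca, a difference of 11.5-fold [6.78, 21.1] that rests on 155 and 15 counts. Its HH6/7 levels were 0.146 CPM in neural plate, 1.29 CPM in anterior and 0.858 CPM in posterior preplacodal tissue, and 0.851 CPM in non-neural ectoderm. CDH18 thus had the second largest upward ratio on the grafted side among members at 5 CPM, and its lowest level in neural plate. CDH12 stood at 3.82 CPM in anterior and 1.33 CPM in central epiblast, and at 4.90 CPM in grafted and 7.62 CPM in ungrafted area opaca. In the HH6/7 libraries it had 0.164 CPM in neural plate, 1.53 CPM in anterior and 0.959 CPM in posterior preplacodal tissue, and 3.34 CPM in non-neural ectoderm, again with its minimum in neural plate (18 counts).

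CDH5, the VE-cadherin of blood vessel lining, reached 8.31 CPM in non-neural ectoderm. It had 0.0602 CPM in anterior and 0.0999 CPM in central epiblast, 0.0819 CPM in neural plate, 0.0208 CPM in anterior and 0.325 CPM in posterior preplacodal tissue, and no count in either area opaca library. Neural plate, with 9 counts, was 101-fold [53.0, 223] lower than non-neural ectoderm. Some other blood and vessel markers were also highest there. Over 7 such genes, CDH5 included, the sum was 66.8 CPM in non-neural ectoderm and between 3.09 CPM and 8.26 CPM in the other libraries, with KDR at 32.8 CPM, LMO2 at 19.0 CPM and TAL1 at 2.38 CPM in non-neural ectoderm. The vessel gene TIE1 differed little between non-neural ectoderm (3.41 CPM) and neural plate (3.13 CPM). It was at 1.66 CPM in anterior preplacodal tissue, 0.153 CPM in grafted and 0.823 CPM in ungrafted area opaca. The globin genes HBAD (0.681 CPM in non-neural ectoderm) and HBZ (0.221 CPM there) stayed under 1 CPM in all libraries. The part of vessel cells in the CDH5 level, and in other members of that library, was not tested.

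CDH13, the T-cadherin that is held by a lipid anchor and lacks an inner domain, was highest in area opaca. It stood at 18.0 CPM in anterior and 3.94 CPM in central epiblast, and at 86.4 CPM in grafted and 61.3 CPM in ungrafted area opaca. In the later tissues it stood at 15.1 CPM in neural plate, 48.3 CPM in anterior and 45.9 CPM in posterior preplacodal tissue, and 42.3 CPM in non-neural ectoderm. Neural plate was 2.80-fold [2.63, 2.98] lower than non-neural ectoderm, while preplacodal tissue was within 1.14-fold of non-neural ectoderm. Anterior exceeded central epiblast by 4.55-fold [4.08, 5.09].

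PCDH1, a delta-1 protocadherin of epithelial junctions, was lowest in neural plate among the HH6/7 tissues, as CDH1 was. It stood at 233 CPM in anterior and 179 CPM in central epiblast, and at 84.3 CPM in grafted and 144 CPM in ungrafted area opaca. The HH6/7 libraries had 91.6 CPM in neural plate, 123 CPM in anterior and 203 CPM in posterior preplacodal tissue, and 252 CPM in non-neural ectoderm. Neural plate was 2.54-fold [2.48, 2.60] below anterior epiblast and 2.75-fold [2.68, 2.82] below non-neural ectoderm, which lay near the epiblast level.

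Delta-2 protocadherins, known to bind the WAVE complex that regulates actin, did not share a pattern. PCDH8, known as paraxial protocadherin from cell movements in frog and fish mesoderm, stood at 31.1 CPM in neural plate, 4.33 CPM in anterior and 12.1 CPM in posterior preplacodal tissue, and 1.23 CPM in non-neural ectoderm. It had 4.21 CPM in anterior and 1.60 CPM in central epiblast, and 0.613 CPM in grafted and 0.412 CPM in ungrafted area opaca. Neural plate was 25.4-fold [20.1, 32.5] above non-neural ectoderm, the largest upward ratio of a member in that comparison, and posterior preplacodal tissue was 9.89-fold [7.81, 12.7] above it.

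PCDH18 stood at 7.99 CPM in anterior and 8.86 CPM in central epiblast, and at 18.3 CPM in grafted and 4.05 CPM in ungrafted area opaca, a difference of 4.52-fold [3.39, 6.12] between the sides. PCDH17 stood at 5.09 CPM in anterior and 7.03 CPM in central epiblast, and at 19.1 CPM in grafted and 4.25 CPM in ungrafted area opaca, a difference of 4.48-fold [3.38, 6.02]. They differed among the HH6/7 tissues. PCDH18 had 21.2 CPM in neural plate, 12.9 CPM in anterior and 20.3 CPM in posterior preplacodal tissue, and 6.49 CPM in non-neural ectoderm. PCDH17 had 4.83 CPM in neural plate, 9.03 CPM in anterior and 9.32 CPM in posterior preplacodal tissue, and 10.1 CPM in non-neural ectoderm. Neural plate was 3.27-fold [2.93, 3.65] above non-neural ectoderm for PCDH18 and 2.09-fold [1.85, 2.35] below it for PCDH17.

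PCDH19, a gene linked to epilepsy in humans, was even. It stood at 45.9 CPM in anterior and 33.2 CPM in central epiblast, and at 81.0 CPM in grafted and 54.6 CPM in ungrafted area opaca. Its later levels were 62.9 CPM in neural plate, 78.2 CPM in anterior and 83.4 CPM in posterior preplacodal tissue, and 82.1 CPM in non-neural ectoderm, and in none of the 10 comparisons did it differ 2-fold. PCDH10 was under 5 CPM in all libraries, with 4.55 CPM in non-neural ectoderm, 2 counts in neural plate and none in the grafted area opaca.

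The clustered gamma protocadherins PCDHGC3 and PCDHGA2 share constant exons, and their counts went together. PCDHGA2 had 53.9% to 65.6% of the PCDHGC3 count in 7 libraries and 3 against 8 counts in the ungrafted area opaca, so the names are uncertain and cannot be taken as separate evidence. PCDHGC3 stood at 9.27 CPM in anterior and 1.77 CPM in central epiblast, and at 7.81 CPM in grafted and 0.549 CPM in ungrafted area opaca. Its HH6/7 levels were 37.0 CPM in neural plate, 33.0 CPM in anterior and 27.4 CPM in posterior preplacodal tissue, and 13.6 CPM in non-neural ectoderm. PCDHGA2 stood at 5.67 CPM in anterior and 1.04 CPM in central epiblast, and at 4.21 CPM in grafted and 0.206 CPM in ungrafted area opaca. At HH6/7 it stood at 23.0 CPM in neural plate, 21.6 CPM in anterior and 18.0 CPM in posterior preplacodal tissue, and 8.53 CPM in non-neural ectoderm. For PCDHGC3, anterior exceeded central epiblast by 5.24-fold [4.46, 6.19] and neural plate exceeded non-neural ectoderm by 2.73-fold [2.53, 2.95]. The grafted area opaca exceeded the ungrafted one by 14.2-fold [6.96, 33.9], the largest upward ratio of a member at 5 CPM there, resting on 102 and 8 counts. The alpha cluster names PCDHA11 and PCDHAC2 stayed at or under 0.509 CPM.

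PCDH15, a protein of the tip links of hair cells, stood at 1.15 CPM in anterior and 4.02 CPM in central epiblast, and at 8.20 CPM in grafted and 11.2 CPM in ungrafted area opaca. The HH6/7 tissues had 4.70 CPM in neural plate, 4.8 CPM in anterior and 6.56 CPM in posterior preplacodal tissue, and 6.504 CPM in non-neural ectoderm, close to each other. CDH20 peaked at 3.78 CPM in central epiblast and CDH10 at 3.60 CPM in the grafted area opaca. PCDH12, a protocadherin of vessel lining, and PCDH20 peaked in non-neural ectoderm at 3.29 and 1.09 CPM. PCDH12 was at 1.92 CPM or more in every library. PCDH7 (at most 0.765 CPM, in neural plate), PCDH9 (at most 0.206 CPM) and the intestinal CDH17 (20 counts, all in non-neural ectoderm) completed the family.

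For counts of genes, a size rule was used, in which PCDHGC3 and PCDHGA2 each count as a member. Where both pass, the number and share of members may thus rest in part on shared reads. A gene passed where the levels differed at least 2-fold and the higher library had at least 5 CPM. Numbers and medians are over genes at 5 CPM in either library. A gene under 5 CPM in the other library therefore had the direction of its ratio set by this filter. In the node graft comparison 15 members were at 5 CPM on either side. Of these 5 were higher with the graft (CDH11, CDH18, PCDH17, PCDH18 and PCDHGC3), 2 were lower (CDH4 and CDH7) and 8 did neither. Of all 9437 genes at that level 16.1% passed, 7.56% upward and 8.57% downward. The median log2 ratio was 0.50 for the members and 0.02 for all genes. A member low on the other side could enter only by differing. At 5 CPM on both sides 1 of 8 passed (CDH4), where 9.98% of all genes did, so that share was near that of all genes. Neural plate markers summed to 364 CPM with the graft and 52.1 CPM without it, surface ectoderm markers to 660.2 CPM and 2481 CPM, and markers of the node and axial mesoderm, the grafted tissue, to 38.7 CPM and 2.13 CPM. SHH of the last list had no count on either side. Over 7 markers of endoderm, hypoblast and yolk the sums were 13.9 CPM with and 81.2 CPM without the graft, and all 5 at 5 CPM were lower with it, GATA4 at 0.306 against 8.58 CPM and TTR at 0.230 against 7.55 CPM. The part of graft cells and of these other tissues in the members' ratios was not tested.

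**Figure D4:**
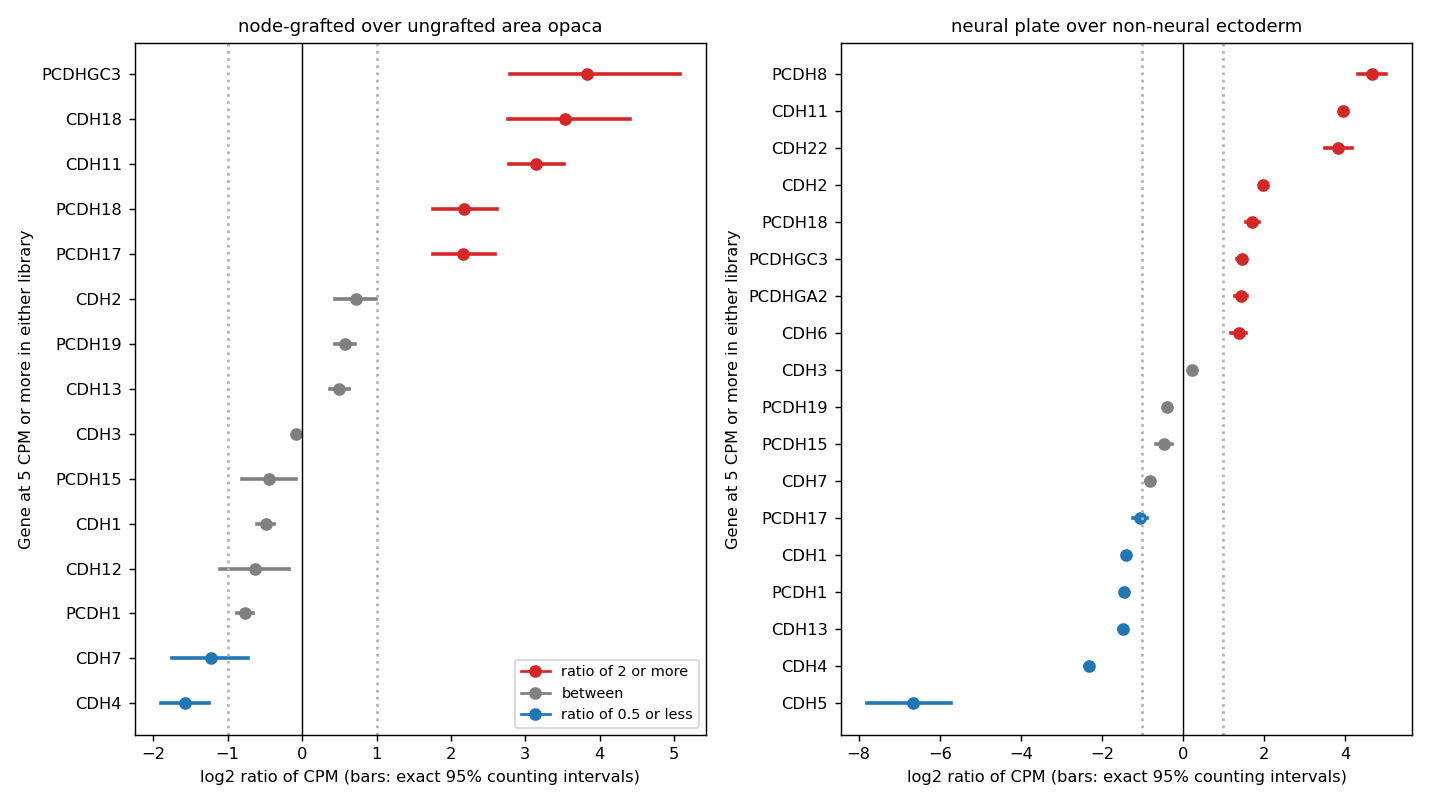
Log2 ratio of CPM, with exact 95% counting intervals as bars, of the members at 5 CPM or more in either library, for grafted over ungrafted area opaca (left) and neural plate over non-neural ectoderm (right); dotted lines mark 2-fold. CDH11, PCDH18 and PCDHGC3 pass upward and CDH4 passes downward in both, PCDH17 passes upward on the left and downward on the right, and CDH3 lies near 0 in both. The overlap of the 2 comparisons over all genes was not counted.

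Between neural plate and non-neural ectoderm 18 members were at 5 CPM, of which 8 were higher in neural plate (CDH2, CDH6, CDH11, CDH22, PCDH8, PCDH18, PCDHGC3 and PCDHGA2), 6 were lower (CDH1, CDH4, CDH5, CDH13, PCDH1 and PCDH17) and 4 did neither. Of all 10206 genes 22.2% passed, 9.18% upward and 13.1% downward, and the median log2 ratio was -0.09 for the members and 0.04 for all genes. At 5 CPM in both tissues 9 of 12 members passed, where 14.5% of all genes did. Of the 4 type II cadherins at 5 CPM (CDH5, a divergent type II cadherin that was lower, is counted apart), 3 passed, all higher in neural plate. Of these CDH6 and CDH22 were under 5 CPM in non-neural ectoderm, so they could enter only by being higher in neural plate. The type II cadherins CDH8, CDH9, CDH12 and CDH18, under 5 CPM in both tissues, were lower in neural plate. Of the type I cadherins CDH2 was higher and CDH1 and CDH4 were lower. The endoderm, hypoblast and yolk markers summed to 40.1 CPM in neural plate and 162 CPM in non-neural ectoderm, and all 5 at 5 CPM were lower in neural plate, among them TTR (0.828 against 34.3 CPM) and APOA1 (37.1 against 100.3 CPM). Of the node and axial mesoderm markers 2 were at 5 CPM. CHRD was higher in neural plate (19.4 against 1.77 CPM), and T passed neither way (8.61 against 4.41 CPM). FOXA2, lower than these, went the other way (1.28 against 1.53 CPM). The part of these tissues in the members' ratios was not tested.

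Preplacodal tissue was set against non-neural ectoderm within 1 laboratory. Its anterior part had 16 members at 5 CPM, 4 higher (CDH8, CDH11, PCDHGC3 and PCDHGA2), 3 lower (CDH4, CDH5 and PCDH1) and 9 neither. Of all 10151 genes 13.9% passed, 6.73% upward and 7.22% downward, and the median log2 ratios of members and of all genes were 0.13 and 0.04. The posterior part had 20 members at 5 CPM, 8 higher (CDH8, CDH9, CDH11, CDH22, PCDH8, PCDH18, PCDHGC3 and PCDHGA2), 2 lower (CDH4 and CDH5) and 10 neither. There 15.4% of 10137 genes passed, 6.93% upward and 8.48% downward, and the medians were 0.35 and 0.05. With 5 CPM in both tissues, 5 of 13 anterior and 5 of 14 posterior members passed, against 9.19% and 10.3% of all genes. Both comparisons share the non-neural library, and the same endoderm, hypoblast and yolk markers summed to 31.8 CPM anteriorly and 17.1 CPM posteriorly. PCDH18 missed the rule anteriorly by little, at 1.99-fold.

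Against anterior preplacodal tissue, neural plate had 17 members at 5 CPM, 5 higher (CDH2, CDH6, CDH11, CDH22 and PCDH8), 2 lower (CDH8 and CDH13) and 10 neither, where 9.47% of 9952 genes passed, 2.86% upward and 6.6% downward (medians -0.10 and 0.00). Against posterior preplacodal tissue it had 19, of which 5 were higher (CDH2, CDH6, CDH11, CDH22 and PCDH8), 5 were lower (CDH1, CDH8, CDH9, CDH13 and PCDH1) and 9 did neither. Here 7.18% of 9894 genes passed, 2.14% upward and 5.03% downward (medians -0.13 and 0.00). These comparisons share the neural plate library. With 5 CPM in both tissues, 3 of 12 and 8 of 15 members passed, against 5.74% and 4.34% of all genes. CDH1 missed the rule against anterior preplacodal tissue by little, at 1.98-fold lower.

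Relative to anterior epiblast, assigned to the same laboratory, neural plate had 16 members at 5 CPM, of which 10 were higher (CDH2, CDH4, CDH6, CDH7, CDH11, CDH22, PCDH8, PCDH18, PCDHGC3 and PCDHGA2), PCDH1 was lower and 5 did neither. Of all 9789 genes 19.6% passed, 14.8% upward and 4.75% downward, and the medians were 2.01 for the members and 0.18 for all genes. CDH4, CDH6, CDH7, CDH22 and PCDH8 were under 5 CPM in the epiblast and could enter only by being higher in neural plate. The filter thus set their direction in the number and in the median. At 5 CPM in both, 6 of 10 members passed, against 12.6% of all genes.

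Anterior preplacodal tissue had 14 members at 5 CPM against anterior epiblast, 8 higher (CDH2, CDH4, CDH7, CDH8, CDH11, CDH13, PCDHGC3 and PCDHGA2), none lower and 6 neither. Of 9955 genes 22.4% passed, 18.8% upward and 3.62% downward (medians 1.58 and 0.23). CDH4, CDH7 and CDH8, under 5 CPM in the epiblast, could enter only by being higher. Non-neural ectoderm had 15, of which 6 were higher (CDH1, CDH4, CDH5, CDH7, CDH13 and PCDH15), none was lower and 9 did neither. Here 30.1% of 10043 genes passed, 22.5% upward and 7.63% downward (medians 0.97 and 0.17). The same holds here for CDH4, CDH5, CDH7 and PCDH15. With 5 CPM in both tissues 5 of 11 and 2 of 11 members passed, against 15.2% and 21.3% of all genes, so that for non-neural ectoderm the share was near that of all genes. CDH2, CDH11 and PCDH17 missed the rule there by little, at 1.90-fold, 1.95-fold and 1.98-fold.

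Within the epiblast 11 members were at 5 CPM, and 5 were higher anteriorly (CDH2, CDH11, CDH13, PCDHGC3 and PCDHGA2), none was lower and 6 did neither. Of 9312 genes 10.8% passed, 6.09% upward and 4.71% downward (medians 0.47 and 0.00). CDH13, PCDHGC3 and PCDHGA2, under 5 CPM centrally, could enter only by being higher anteriorly. At 5 CPM in both regions 2 of 8 members passed (CDH2 and CDH11), against 6.46% of all genes. Of the node and axial mesoderm markers at 5 CPM, 2 of 4 were higher anteriorly (CHRD at 81.6 against 3.52 CPM) and 0 lower. Of the surface ectoderm markers 3 of 5 were lower anteriorly (GRHL3 at 0.0702 against 30.1 CPM) and 0 higher. Of those of endoderm, hypoblast and yolk 3 of 4 were lower and 1 (APOA1) was higher. The part of these tissues in the members' ratios was not tested.

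**Figure D5:**
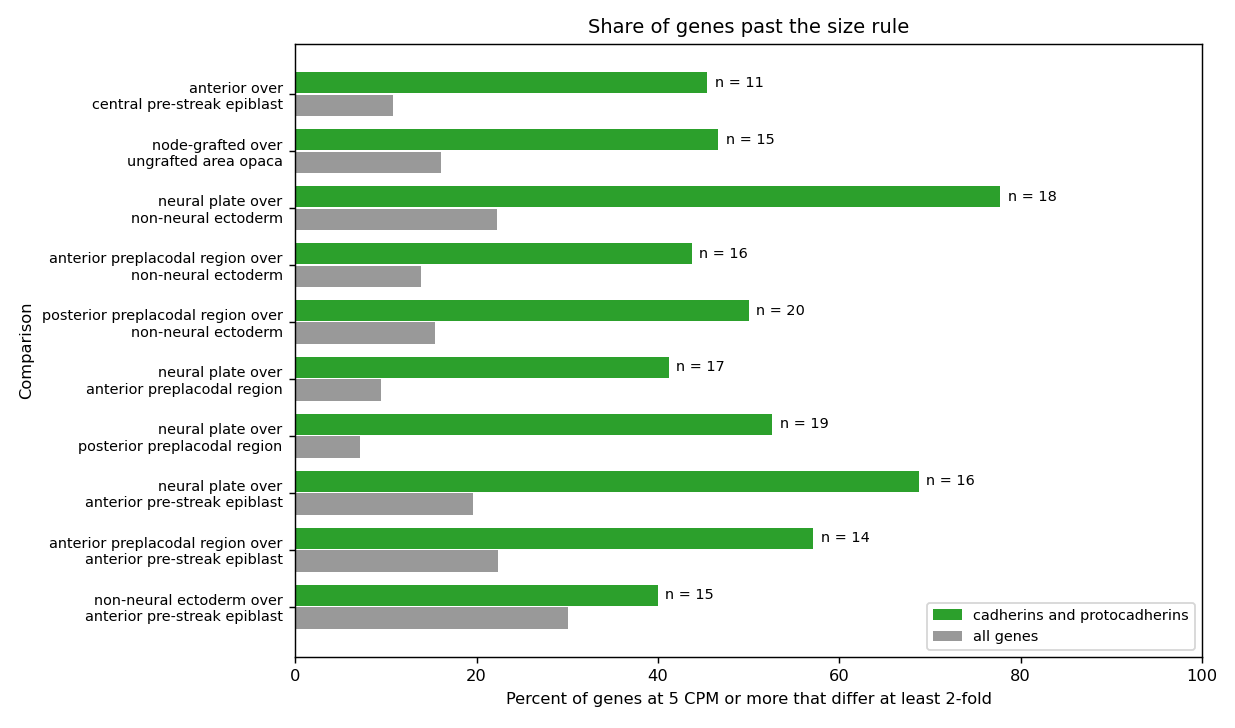
Percent of genes at 5 CPM or more in either library that differ at least 2-fold, for the members (green; n is the number at 5 CPM) and all genes (grey), in the 10 comparisons. The members' share runs from 40% in non-neural ectoderm over anterior epiblast, where it is 30.1% for all genes, to 77.8% in neural plate over non-neural ectoderm, where it is 22.2% for all genes. Genes under 5 CPM in the other library are included, and these enter only by being lower there. At 5 CPM in both libraries 2 of 11 members pass in non-neural ectoderm over anterior epiblast, against 21.3% of all genes. In grafted over ungrafted area opaca 1 of 8 does, against 9.98%, so both shares are near those of all genes. In the remaining comparisons the members' share stays above that of all genes.

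Of 19 listed catenins and other partners of cadherins at junctions, 17 were matched and 16 were at 5 CPM in each comparison. None of the 16 passed the rule between the sides of the area opaca, where 16.1% of all genes passed. None did in either preplacodal piece against non-neural ectoderm (13.9% of all genes anteriorly and 15.4% posteriorly). The same held in neural plate against either preplacodal piece (9.47% of all genes against the anterior and 7.18% against the posterior one). The largest number was 7 of 16, reached in neural plate over anterior epiblast (6 higher and 1 lower, where 19.6% of all genes passed) and in anterior preplacodal tissue over anterior epiblast (7 higher, where 22.4% of all genes passed). CTNNB1 (beta-catenin) stood at 1003 CPM in neural plate and 1609 CPM in non-neural ectoderm. CTNNA2, the alpha-catenin of neurons, was 2.38-fold [2.22, 2.55] higher in neural plate (42.2 CPM) than in non-neural ectoderm (17.7 CPM) and 2.38-fold [2.16, 2.63] higher in anterior than in central epiblast. The linker MLLT4 (afadin) was 2.05-fold [2.01, 2.10] lower in neural plate than in non-neural ectoderm. JUP (plakoglobin) was 2.24-fold [2.20, 2.28] higher in anterior than in central epiblast, and ARVCF, a catenin of the p120 family, was 3.98-fold [3.86, 4.10] higher in neural plate than in anterior epiblast.

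Of 24 other members of the cadherin superfamily 18 were matched. In neural plate against non-neural ectoderm 13 were at 5 CPM, of which 2 passed upward, 3 downward and 8 neither way, where 22.2% of all genes passed. The planar polarity gene CELSR2 was 5.64-fold [5.22, 6.11] higher and DCHS1, a partner of FAT cadherins, 2.42-fold [2.31, 2.55] higher, while the desmosomal DSG2 was 6.16-fold [5.83, 6.51] lower (15.2 against 93.7 CPM). In the grafted against the ungrafted area opaca 10 were at 5 CPM, of which 2 passed upward, 3 downward and 5 neither way, where 16.1% of all genes passed. There CELSR1 was 4.55-fold [4.18, 4.96] and DSG2 3.64-fold [3.28, 4.06] lower, and CELSR3 3.39-fold [2.53, 4.59] higher. CELSR1 stood at 217 CPM in neural plate, 115 CPM in anterior and 125 CPM in posterior preplacodal tissue, and 218 CPM in non-neural ectoderm.

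Of 20 transcription factors known to repress cadherins or to accompany their changes, 18 were matched. In neural plate against non-neural ectoderm 12 were at 5 CPM, of which 3 passed upward, 4 downward and 5 neither way, where 22.2% of all genes passed. GRHL3, an epidermal factor, was 795-fold [592, 1095] lower, ELF3 21.8-fold [17.8, 27.1] lower and the neural SOX2 391-fold [206, 856] higher. ZEB2, a repressor of CDH1 in other systems, stood at 93.7 CPM in neural plate, 2.61 CPM in anterior and 15.3 CPM in posterior preplacodal tissue, and 4.39 CPM in non-neural ectoderm, and was 21.3-fold [18.9, 24.2] higher in neural plate than in non-neural ectoderm. GRHL2, known in mouse to activate CDH1, stood at 11.4 CPM in neural plate, 75.8 CPM in anterior and 63.8 CPM in posterior preplacodal tissue, and 96.3 CPM in non-neural ectoderm. Among the HH6/7 libraries neural plate had the highest ZEB2 and the lowest GRHL2 and CDH1. Posterior preplacodal tissue had more ZEB2 than anterior. It also had more CDH1 in CPM and, by a smaller margin, in FPKM (48.1 against 42.5 FPKM). In anterior and central epiblast ZEB2 had 1.98 and 0.290 CPM and GRHL2 13.8 and 41.3 CPM. CDH1 in CPM was near its neural plate level in both, while in FPKM it was above that level in both. The part of these factors in the CDH1 levels was not tested. In the grafted against the ungrafted area opaca 8 were at 5 CPM, of which 1 passed upward, 4 downward and 3 neither way, where 16.1% of all genes passed. SNAI1, a further repressor of CDH1, was 7.09-fold [5.49, 9.27] higher (33.6 against 4.73 CPM), and GRHL3 66.8-fold [50.1, 91.0], ELF5 84.5-fold [28.6, 412] and GRHL2 2.13-fold [1.95, 2.33] lower. CDH1 was 1.40-fold [1.30, 1.52] lower there, short of the rule.

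Of 21 proteases that cut cadherins or mature them, 17 were matched. In the grafted against the ungrafted area opaca 13 were at 5 CPM, of which 3 passed upward, 0 downward and 10 neither way, where 16.1% of all genes passed. ADAM12 was 8.65-fold [7.24, 10.4] higher there (82.5 against 9.54 CPM) and ADAM8 4.17-fold [2.95, 6.02] higher. In neural plate against non-neural ectoderm 12 were at 5 CPM, of which 1 passed upward, 2 downward and 9 neither way, where 22.2% of all genes passed. ADAM12 was 3.64-fold [3.49, 3.80] lower and the convertase PCSK5 3.62-fold [3.30, 3.98] higher. ADAM10, the protease best known for cutting CDH1 and CDH2, passed in 1 of the 10 comparisons, 2.07-fold [2.01, 2.14] higher in non-neural ectoderm than in anterior epiblast.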

How the data were processed

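The authors deposited a table of raw counts per gene for 17329 genes (16701 Ensembl, 628 RefSeq) and a table of FPKM. Per the submitters' processing notes TopHat2 and the chicken build galGal4 were used. The counting program, annotation and strand setting were not stated in any source at hand, so reads of overlapping or neighbouring genes may be shared. The deposited FPKM served to compare genes per length and as an alternative. FPKM of RefSeq genes are blank for non-neural ectoderm and do not follow the counts column by column, so they were not used. CPM divides each count by its column total. Ratios carry exact Clopper-Pearson intervals (95%), computed from the share of a gene's reads that fell in one of the compared libraries, and levels carry exact Poisson intervals. No test was possible with 1 library per group. The interval and the size rule were tried on simulated data with counting error alone, which cannot address spread between samples. All members at 5 CPM in any library are named, and of the lists up to 4 passing genes with large ratios at 10 CPM or more. CTNNB1, GRHL2, ADAM10 and the HH6/7 levels of CELSR1 were chosen after their values were seen. The members and lists were chosen with earlier results of these data known. Of 32 members 31 have their symbol in the RefSeq reference table (GRCg7b), used only for names and neighbours. Alternatives were edgeR 4.0.16 TMM factors, DESeq2 1.42.0 size factors (R 4.3.3), other minimums and ratios, RefSeq genes left out and FPKM with pseudocounts of 1 and 0.1. Thinning to the smallest library and leaving out clustered protocadherins were added after seeing the data. Python 3.11.15, pandas 2.3.3, numpy 2.4.6, scipy 1.17.1 and matplotlib 3.10.9 were used.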

Additional observations from a re-analysis of the deposited data

How the results depend on the processing

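Of 786 alternative values for 161 member ratios, none turned the direction of a ratio that passed the size rule. Values of ratios that had not passed could not count towards this. TMM and DESeq2 factors could not turn a passing ratio either, as their shifts are smaller than 2-fold, so for them the outcome was fixed. Of the same 786 values, 29 changed the sign of a ratio that had not passed. These fell in 12 results whose log2 ratio was at most 0.35 in size, CDH3 and CDH1 among them. TMM and DESeq2 factors kept every number of members passing within 1.5 times; they shifted all log2 ratios over anterior epiblast by -0.14 and -0.16 for neural plate, -0.19 and -0.23 for anterior preplacodal tissue and -0.21 and -0.19 for non-neural ectoderm, and those of the other comparisons by under 0.1. Numbers passing followed the minimum. The shares of all genes under the settings below are not given beside them, so the changes cannot be read as particular to the members. With 3 counts as minimum they were 13 in anterior over central epiblast (5 with the rule), 16 in grafted over ungrafted area opaca (7), 24 in neural plate over non-neural ectoderm (14), 16 in anterior preplacodal over non-neural (7), 13 and 17 in neural plate over anterior and posterior preplacodal (7 and 10), and 20, 19 and 18 in neural plate, anterior preplacodal and non-neural over anterior epiblast (11, 8 and 6). With 1 CPM they were 9 in anterior over central epiblast, 13 in grafted over ungrafted, 12 in anterior preplacodal over non-neural, and 14 and 15 in anterior preplacodal and non-neural over anterior epiblast. At a ratio of 4 they were 3 in anterior over central epiblast, 5, 2 and 5 in neural plate, anterior and posterior preplacodal over non-neural, 2 in neural plate over posterior preplacodal and 4 in anterior preplacodal over anterior epiblast. FPKM gave 3 in anterior over central epiblast with either pseudocount, and 5 in posterior preplacodal over non-neural with a pseudocount of 1. The FPKM settings leave out RefSeq genes, among them PCDHGA2, which passed in both comparisons, so part of the fall comes from the smaller set. Leaving out clustered protocadherins gave 3 in anterior over central epiblast, and thinning gave 10 in non-neural over anterior epiblast, where several members lie just under 2-fold. The log2 balance of CDH2 to CDH1 in FPKM, with a pseudocount of 1 and of 0.1, was -1.52 and -1.62 in anterior and -2.57 and -2.82 in central epiblast, 1.47 and 1.51 in neural plate, -0.70 and -0.71 in anterior and -1.19 and -1.23 in posterior preplacodal tissue. In the ungrafted area opaca it was -2.88 with a pseudocount of 1. The shift differed between libraries, and the cause was not tested.

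No paired analysis was possible because each group has 1 library. The area opaca libraries, the shallowest, limit what can be seen of members near 3 counts.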
